A study of Mus musculus with 4 samples.

Results

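The genes described here are 10 genes of brown and white fat, examined for how much fat each dissected sample held and of which type. They are the brown fat genes Ucp1, Cidea, Elovl3, Cox8b and Ppargc1a and the general adipocyte genes Adipoq, Plin1, Fabp4, Lep and Cfd. They were chosen by symbol, and 9 of the 10 had a probe set among the 30702 named genes of the array. Cfd, which encodes adipsin, had no probe set named in the annotation used and was not analysed here. The study profiled RNA of dissected trachea and oviduct from wild-type (WT) mice and from mice whose label is null for Gemc1 (current symbol Gmnc), a gene known to start the programme of multiciliated cells. All mice came from a mixed C57BL/6 x 129 background. Trachea came from males aged 39 days and oviduct from females aged 65 days, so tissue, sex and age cannot be told apart. Each of the 4 groups had 1 Affymetrix array, and the labels do not say whether a sample came from 1 mouse or from a pool. Within a tissue there is therefore no replicate, no error and no test, and the number of arrays limits the precision of every value.

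Brown fat cells burn fatty acids for heat. Uncoupling protein 1, the product of Ucp1, lets protons back across the inner mitochondrial membrane without making ATP, in cells rich in mitochondria and small lipid droplets. White fat cells store triglyceride in a single large droplet and release hormones such as leptin and adiponectin. Both kinds share the nuclear receptor PPARgamma, droplet proteins and lipases, and fat lies around many organs, the airway and the genital tract among them.

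The regulatory DNA just before the start sites is shown for 4 of the genes whose values the results turn on. Ucp1, Adipoq and Plin1 were lower together in trachea, and Cox8b was not. The sequences are the 250 bases before the start site, 5′ to 3′ on the gene's own strand, from RefSeq on build GRCm38.p6. Capitals mark matches on either strand to 4 short motifs: AGGTCA (the half-site of PPAR and other nuclear receptors), TGACG (a half-site of the cAMP response element), CCAAT and TATAAA. Ucp1 lies on the plus strand, shown at chr8:83290098-83290347, Adipoq on the plus strand at chr16:23146286-23146535, Plin1 on the minus strand at chr7:79732777-79733026, and Cox8b on the minus strand at chr7:140900447-140900696.
Ucp1: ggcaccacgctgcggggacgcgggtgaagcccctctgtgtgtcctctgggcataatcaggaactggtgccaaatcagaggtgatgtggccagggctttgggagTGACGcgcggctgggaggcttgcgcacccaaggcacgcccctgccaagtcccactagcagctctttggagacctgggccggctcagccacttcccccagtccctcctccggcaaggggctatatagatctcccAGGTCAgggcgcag
Adipoq: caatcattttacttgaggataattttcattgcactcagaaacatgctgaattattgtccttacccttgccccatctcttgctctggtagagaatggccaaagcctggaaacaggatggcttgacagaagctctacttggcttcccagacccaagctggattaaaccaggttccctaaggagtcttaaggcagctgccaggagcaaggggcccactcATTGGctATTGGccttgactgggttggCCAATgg
Plin1: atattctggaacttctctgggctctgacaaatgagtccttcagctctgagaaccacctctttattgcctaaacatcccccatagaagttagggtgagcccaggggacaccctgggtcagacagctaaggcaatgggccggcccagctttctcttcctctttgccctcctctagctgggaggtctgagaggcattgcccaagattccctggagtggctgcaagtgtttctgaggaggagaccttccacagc
Cox8b: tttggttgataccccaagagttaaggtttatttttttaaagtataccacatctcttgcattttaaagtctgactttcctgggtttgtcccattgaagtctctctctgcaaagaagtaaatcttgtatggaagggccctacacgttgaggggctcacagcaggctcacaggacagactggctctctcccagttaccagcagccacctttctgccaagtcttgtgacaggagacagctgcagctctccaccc
The Ucp1 window held 1 AGGTCA, at positions -14 to -9 from the start site, and 1 TGACG at -147 to -143. AGGTCA was found in 14% of 32851 windows of the same length, and TGACG in 17.8%. The Adipoq window held 3 CCAAT matches, at -34 to -30 and -27 to -23 on the opposite strand and at -7 to -3 on its own, and 33.8% of all windows held at least 1. The Plin1 and Cox8b windows held none of these letters, nor did any of the 4 windows hold TATAAA, which 12.4% of all windows did. Such matches describe letters only, and the arrays did not measure binding.

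All levels below are log2 RMA signals, and a genotype difference is the level in the tissue labelled Gemc1-null minus that in its WT counterpart. The median over negative-control probe sets lay between 5.74 and 5.98 on the 4 arrays, and a gene below it on an array is called at background there. Their 95th percentile lay between 8.70 and 8.87, so a gene above background by this cut can still lie within their spread. Adipoq lay under that percentile on every array, and Plin1, Fabp4 and Cidea on every array but WT trachea. The targeted gene, read by 1 probe set, stood at 5.90 in WT trachea, 4.64 on the trachea array labelled Gemc1-null, 6.11 on the WT oviduct array and 8.86 on the oviduct array labelled Gemc1-null. Both trachea values were at background, so this probe set cannot check the trachea labels. The oviduct value goes against its label, and no label says which part was deleted, so arrays are called by their labels and every direction rests on them. The oviductal glycoprotein Ovgp1 was at 12.79 and 12.84 in oviduct and at 6.45 and 6.56 in trachea. The airway secretory gene Scgb1a1 was at 12.74 in WT trachea and 8.39 in the trachea labelled Gemc1-null, against 5.32 and 5.67 in oviduct. The same trachea array labelled Gemc1-null carried high skeletal muscle and squamous epithelium genes, given below beside the fat genes.

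Among the brown fat genes, the levels of Ucp1 were 10.40 in WT trachea, 4.72 on the trachea array labelled Gemc1-null, 4.79 on the WT oviduct array and 4.87 on the oviduct array labelled Gemc1-null. Only the WT trachea array was above background, at a level over 98.6% of its negative controls. Cidea, whose product sits on lipid droplets of brown fat cells, was at 9.92 in WT trachea, 7.21 in the trachea labelled Gemc1-null, 7.44 in WT oviduct and 6.36 in the oviduct labelled Gemc1-null. It was above background on all 4 arrays and highest in WT trachea. Elovl3, a fatty acid elongase of cold-exposed brown fat, was at 6.09 in WT trachea and between 5.06 and 5.15 on the other arrays, all 3 of them at background. Cox8b, a cytochrome c oxidase subunit of brown fat, heart and skeletal muscle, had its highest level, 9.34, in the trachea labelled Gemc1-null, with 8.81 in WT trachea, 6.00 in the oviduct labelled Gemc1-null and 5.82 in WT oviduct. Ppargc1a, a coactivator of mitochondrial genes in many tissues, spanned only 0.65 on the log2 scale, from 7.52 in WT oviduct to 8.01 in WT trachea, 8.16 in the trachea labelled Gemc1-null and 8.17 in the oviduct labelled Gemc1-null.

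Among the adipocyte genes, Adipoq, which encodes adiponectin, was at 8.05 in WT trachea, 5.55 in the trachea labelled Gemc1-null, 6.52 in WT oviduct and 6.93 in the oviduct labelled Gemc1-null. It was at background only in the trachea labelled Gemc1-null. Plin1, the perilipin that coats the fat droplet, followed the same order, with 9.50, 7.20, 7.31 and 7.87 on these arrays. Fabp4, a fatty acid carrier of adipocytes that endothelium and macrophages also make, was at 10.76 in WT trachea, 8.13 in the trachea labelled Gemc1-null, 6.86 in WT oviduct and 7.67 in the oviduct labelled Gemc1-null. Lep, the gene of the hormone leptin, was at 5.93, 5.71, 5.22 and 5.83 in that order, at background on every array but the last, where it exceeded 51% of negative controls. WT trachea was the highest array for 7 of the 9 genes, the exceptions being Cox8b and Ppargc1a. Of the 7, Lep was at background in WT trachea and Elovl3 exceeded only 52.6% of negative controls there, so their ranks say little. Over all 30702 named genes it was the highest array for 6130. With no replicates, the spread that would decide whether neighbouring arrays in these orders differ is unknown.

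**Figure D1:**
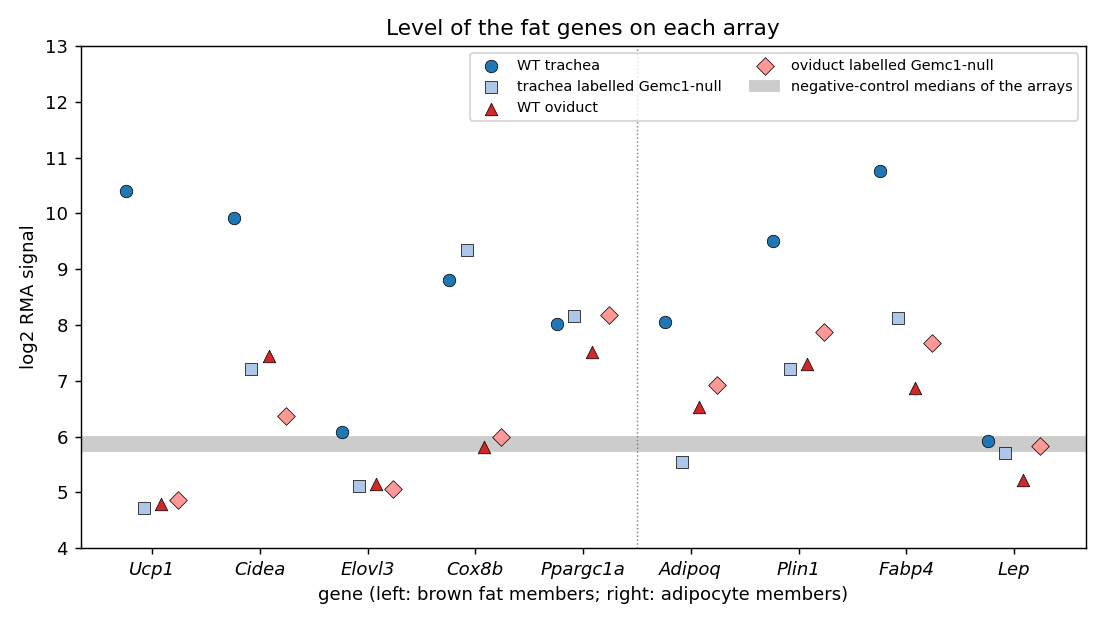
Log2 RMA signal of the 9 measured fat genes (x axis, brown fat genes left of the dotted line and adipocyte genes right) on each of the 4 arrays, 1 point per array. The grey band spans the arrays' negative-control medians, 5.74 to 5.98; Ucp1 is above it in WT trachea alone, while Plin1 and Fabp4 are above it on all arrays.

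The trachea comparison places the array labelled Gemc1-null beside WT. Ucp1 was at least 25.2-fold lower there, a bound taken against the negative-control median because the dimmer array lay below it. Fabp4 was 6.17-fold lower, Cidea 6.55-fold, Plin1 4.91-fold and Adipoq at least 4.94-fold. Of the 9 genes, all of which passed the level filter (signal at or above the array's median on at least 1 array of the pair), 5 were lower by 2-fold or more and 0 were higher, with a median difference of -2.30. The background over all 20164 genes past the filter was 7.74% lower and 6.33% higher at that size, with a median of 0.03. Ucp1, Adipoq, Elovl3 and Lep passed only through the WT array, so that their differences had to be below 0. Elovl3, at background in the trachea labelled Gemc1-null, was at least 1.27-fold lower there. Lep was at background on both trachea arrays and has no fold. Ppargc1a differed by 0.15 and Cox8b by 0.53. In whole tissue, fewer fat cells and less of these transcripts per cell cannot be told apart. The differences of Ucp1 and of Adipoq, both limited by background on the dimmer array, are not ranked against each other.

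WT trachea was also set against WT oviduct, where 6 of the 9 genes were at least 2-fold higher in trachea and 0 lower (median 2.19), against 6.53% higher and 4.66% lower among the 19982 genes past the filter in this pair. Ucp1, Elovl3, Cox8b and Lep passed only through the WT trachea array, so that their differences had to be above 0. Ucp1 was at least 24.8-fold higher in WT trachea, Fabp4 14.9-fold, Cox8b 7.95-fold, Cidea 5.59-fold, Plin1 4.57-fold and Adipoq 2.88-fold. Ppargc1a differed by 0.49 on the log2 scale. Elovl3, at background in WT oviduct, was at least 1.25-fold higher in WT trachea, and Lep was at background on both arrays and has no fold. This pair shares the WT trachea array with the trachea comparison, so a high value on that array enters both.

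In oviduct, the array labelled Gemc1-null had higher levels of the adipocyte genes than WT, each by under 2-fold: the differences were 0.81 for Fabp4, 0.56 for Plin1 and 0.40 for Adipoq. Cidea went the other way and was 2.11-fold lower, and Ppargc1a differed by 0.65. These 5 genes passed the level filter, and 1 of the 5 was at least 2-fold lower and 0 higher, beside 2.75% lower and 0.807% higher over 19713 genes. Their median was 0.56 and the median of all genes 0.05, with 60.2% of all genes above 0. Ucp1, Elovl3, Cox8b and Lep did not pass the filter in oviduct. Ucp1 and Elovl3 were at background on both oviduct arrays, Lep was at background in WT oviduct, and Cox8b differed by 0.18.

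**Figure D2:**
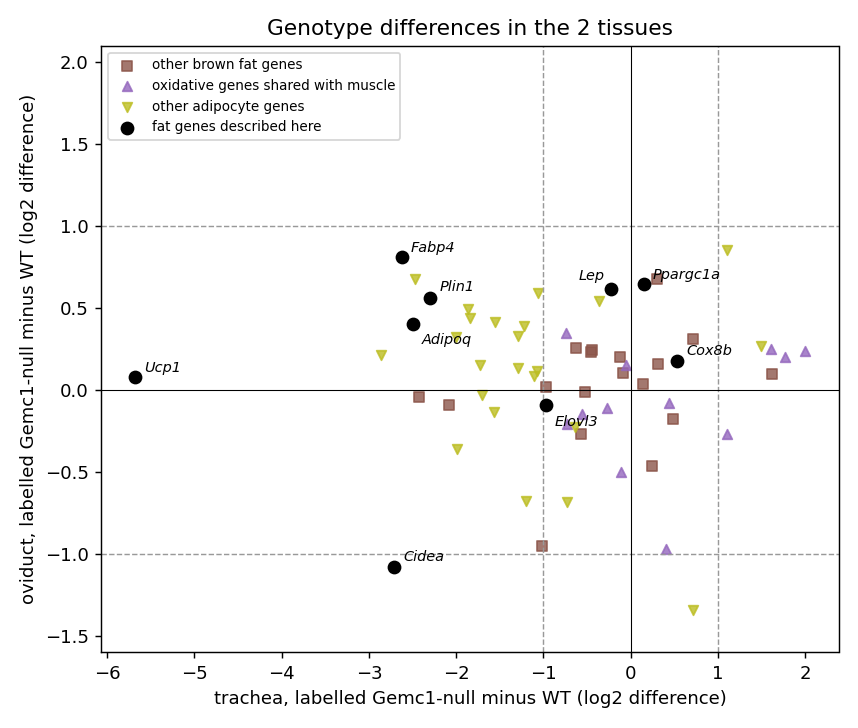
Log2 difference, labelled Gemc1-null minus WT, in trachea (x axis) and oviduct (y axis), 1 point per gene, for the fat genes (black, named) and 3 further lists, with no level filter. Dashed lines mark 2-fold; Adipoq, Plin1 and Fabp4 lie left of the trachea line and above 0 in oviduct, while Cidea is lower in both.

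Other genes of the fat programme were taken from lists by function. Of 23 other adipocyte genes, all past the filter in trachea, 17 were at least 2-fold lower in the tissue labelled Gemc1-null and 2 were higher (median -1.29). Retn and Acvr1c, among those lower, passed only through the WT array and had to be lower. The largest differences were those of Pck1 (-2.86), an enzyme on a route to glycerol phosphate for triglyceride, Cidec (-2.47), a droplet fusion protein, and Thrsp (-2.00), a lipogenic protein. The higher ones, the glucose transporter gene Slc2a4 (1.49) and the carbonic anhydrase gene Car3 (1.11), are also made in skeletal muscle. WT trachea was the highest array for 18 of the 23, beside 6130 of all 30702 named genes. Against WT oviduct 15 were at least 2-fold higher there and 0 lower, Acvr1c passing only through WT trachea. In oviduct 22 of the 23 differed by under 2-fold between genotypes and 16 were above 0 (median 0.21), with Plin4, a perilipin, at -1.34 and Car3 at 0.85.

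Of 20 other brown fat genes 18 were measured and 16 passed the filter in trachea, where 3 were at least 2-fold lower and 1 higher (median -0.28). Otop1 and Slc27a2 passed only through the WT array and had to be lower. Zic1 passed only through the array labelled Gemc1-null and had to be higher. Otop1, a proton channel gene, stood at 8.12 in WT trachea and between 5.70 and 5.91 on the other arrays. Slc27a2, a fatty acid transporter, was at background in the trachea labelled Gemc1-null and at least 2.38-fold lower there. The potassium channel gene Kcnk3 had -1.01 in trachea and -0.95 in oviduct. The transcription factor gene Zic1 was at least 2.38-fold higher, from background in WT trachea. Dio2, which activates thyroid hormone in brown fat, differed by -0.57, and Prdm16, a regulator of brown fat fate, by -0.44. In oviduct 13 of these genes passed the filter, all of them within 2-fold of WT (median 0.03), with Fgf21, a fat-regulating hormone, at least 1.38-fold higher from background in WT oviduct. Fgf21 passed there only through the array labelled Gemc1-null and had to be higher.

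Oxidative genes that brown fat shares with striated muscle were, like Cox8b, not lower as a list. Of 12 such genes 0 were at least 2-fold lower in the trachea labelled Gemc1-null and 4 were higher (median 0.18). The higher ones were the myoglobin gene Mb, 3.99-fold, the muscle cytochrome oxidase subunit Cox6a2 (log2 difference 1.77), Ucp3 (1.61) and Cox7a1 (1.11). Both trachea arrays were above both oviduct arrays for Cox7a1, at 9.42 and 10.52 against 7.17 and 6.90. Cpt1b, the muscle-type carnitine palmitoyltransferase, was likewise at 9.25 and 9.68 against 6.62 and 6.55. In oviduct the 12 genes lay within 2-fold (median -0.09), with Pdk4, an inhibitor of glucose oxidation, at -0.97 and the nuclear receptor gene Esrrg at -0.50. The 17 measured genes of the general electron transport chain were within 2-fold in both tissues, with medians of 0.20 and -0.01. Their extremes in trachea were Cox8a at -0.60 and Cycs, the cytochrome c gene, at 0.39.

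**Figure D3:**
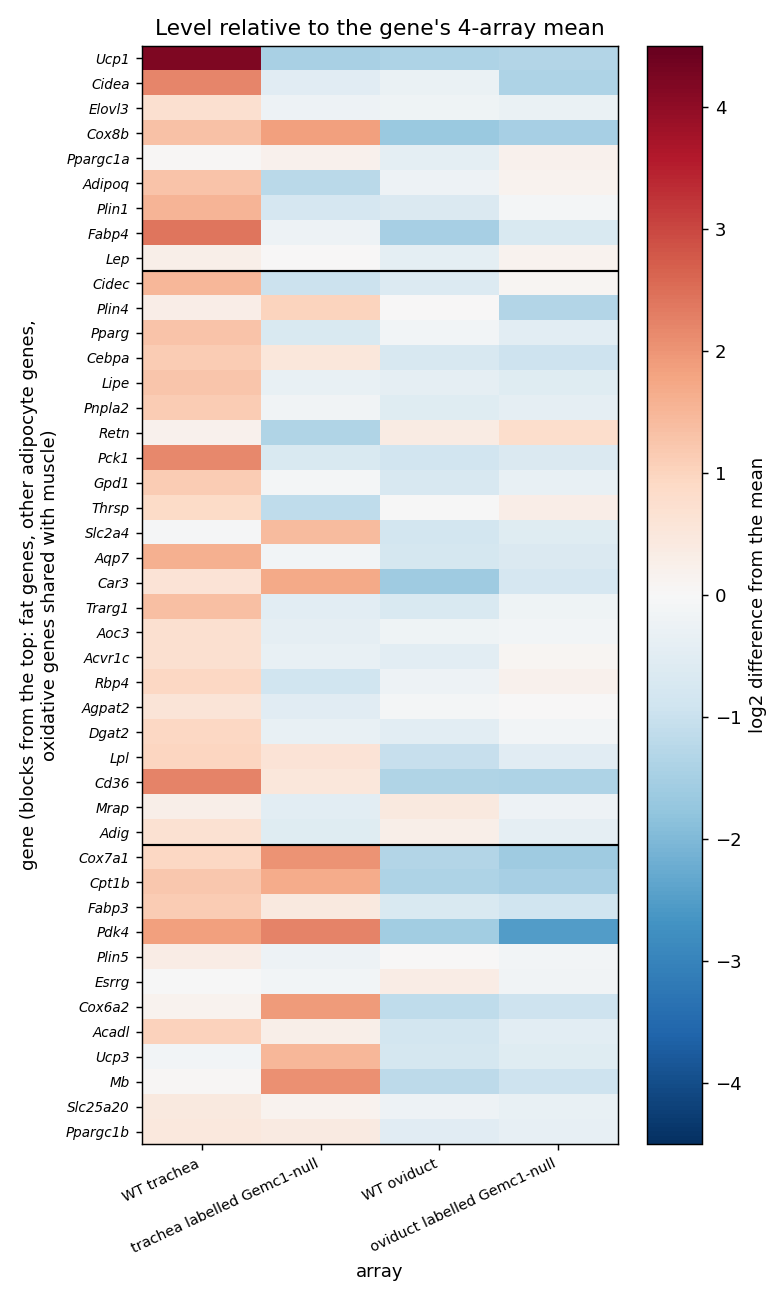
Level of each gene (rows) on each array (columns) as a log2 difference from that gene's mean over the 4 arrays. The top block holds the fat genes, and the middle block 23 other adipocyte genes, 18 of them highest in WT trachea. The bottom block holds 12 oxidative genes shared with muscle, 6 highest in the trachea labelled Gemc1-null and 5 in WT trachea. Of all 30702 named genes 6130 were highest in WT trachea and 7947 in the trachea labelled Gemc1-null.

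Of 17 close relatives of these genes 16 were measured, all but Ucp2, and they did not follow 1 pattern. Ucp3, the muscle relative of Ucp1, was at 6.73 in WT trachea and 8.34 in the trachea labelled Gemc1-null, the opposite order to Ucp1. Cox8a, the form of Cox8b found in most cells, was at 11.09 and 10.49 there and at 11.08 and 11.24 in oviduct, and Cox8c was at most 5.89 on any array. Among the fatty acid binding proteins Fabp3 differed by -0.73 in trachea, Fabp5, an epidermal form, by 2.21 and Fabp7 by 0.89. The perilipins Plin2, Plin3 and Plin5 differed by -0.08, 0.27 and -0.55 in trachea, and Plin4 by 0.71. The elongases Elovl1 and Elovl6 differed by 0.37 and -0.15, while Elovl4, which makes very long chains for the skin barrier, was higher by 2.67. Cideb stayed between 5.77 and 6.04 on the 4 arrays, and Ppargc1b between 7.27 and 8.26. In trachea 1 of 14 relatives past the filter was at least 2-fold lower, Cidec (-2.47), given above, and 3 were higher, Ucp3, Elovl4 and Fabp5. In oviduct Elovl6 (-1.08) and Plin4 were the relatives at least 2-fold lower, 2 of 14 past the filter.

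By step of lipid handling, 4 of 11 genes of lipolysis and the droplet were at least 2-fold lower in trachea and 0 higher (median -0.40): Cidec, the glycerol channel gene Aqp7 (-1.73), Lipe (-1.57), which encodes hormone-sensitive lipase, and Pnpla2 (-1.29), the adipose triglyceride lipase. All 4 are also among the other adipocyte genes counted lower above. So are Cd36, Dgat2 and Pparg in the lists that follow, and the counts are not independent. Of 13 genes of lipid uptake and synthesis 5 were lower and 0 higher (median -0.94), led by Scd1 (-2.72), a desaturase, Fasn (-2.48), the fatty acid synthase, and Cd36 (-1.70), a fatty acid translocase. In oviduct the malic enzyme gene Me1 had -2.42, and with Elovl6 it was 1 of 2 in this list at least 2-fold lower. Of 10 measured regulators 1 was lower in trachea, Pparg (-1.99), the master regulator of fat cells, which stood at 8.94 in WT trachea, 6.96 in the trachea labelled Gemc1-null, 7.53 in WT oviduct and 7.17 in the oviduct labelled Gemc1-null. Cebpa differed by -0.64 and Rxra, the partner of PPARgamma, by 0.56. In oviduct all 9 regulators past the filter lay within 2-fold, with Pparg at -0.36 and Prdm16 at 0.24. Of 6 measured genes of adrenergic input and hormone receptors Pde3b, an adipocyte phosphodiesterase, was at least 5.32-fold lower in trachea, being at background in the array labelled Gemc1-null. Passing only through the WT array, Pde3b had to be lower. Adipor2, an adiponectin receptor, differed by -0.99 and Adipor1 by 0.47. In oviduct the list lay within 2-fold, with Adipor2 at -0.71 and Pde3b at 0.68.

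Genes that lean towards white or beige fat were described separately. Retn, the resistin gene of white fat, was at 7.43 in WT trachea, 5.87 in the trachea labelled Gemc1-null, 7.63 in WT oviduct and 8.04 in the oviduct labelled Gemc1-null. WT trachea minus WT oviduct was thus -0.20 for Retn and 2.19 for Plin1. Of the other white-leaning genes Agt had differences of 0.73 (trachea) and -0.86 (oviduct), and Hoxc8, at background in WT trachea, was at least 1.24-fold higher in the trachea labelled Gemc1-null and differed by 0.34 in oviduct. Hoxc8 (at least 4.88-fold) and Hoxc9 (at least 2.38-fold), both at background in WT trachea, and Wt1 (-3.21 on the log2 scale) were lower in WT trachea than in WT oviduct. In that pair Hoxc8 passed only through WT oviduct and had to be lower in WT trachea. Hoxc8, Hoxc9 and Wt1 are also genes of body position or of the mesothelium and genital tract. Of 7 white-leaning genes 6 passed in trachea, with 1 at least 2-fold lower (Retn, counted above among the other adipocyte genes too) and 0 higher (median 0.43). Retn passed there only through the WT array and had to be lower, and Hoxc8 only through the other array and had to be higher. In oviduct 5 passed and lay within 2-fold. Of 6 beige fat genes in trachea 0 were lower by 2-fold or more and 2 were higher as measured (median 0.13), Tbx1 (1.29) and Shox2. Shox2 was at background in WT trachea and passed only through the other array, and its bound, at least 1.69-fold, is short of 2-fold. Tmem26 differed by -0.86. In oviduct 4 passed, all within 2-fold, among them Cited1 at -0.34 and Tbx1 at 0.27.

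**Figure D4:**
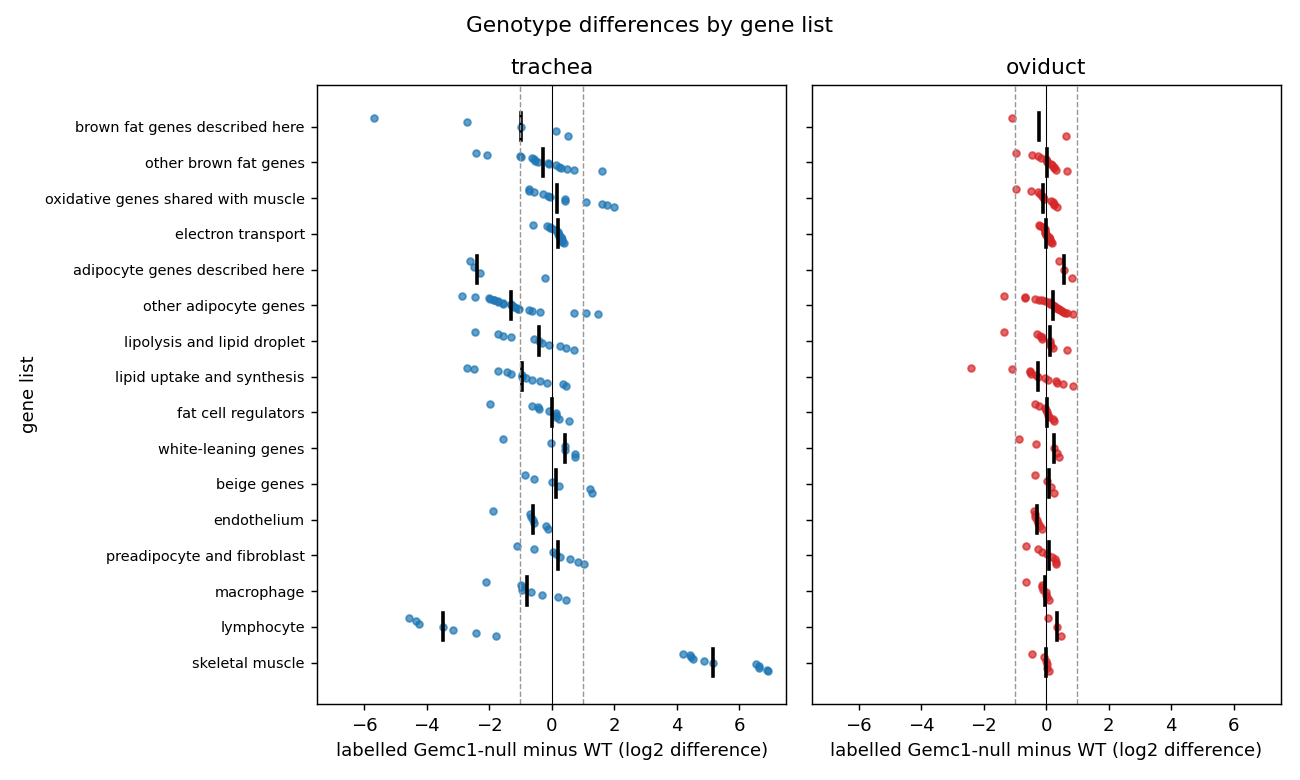
Log2 difference, labelled Gemc1-null minus WT, of each gene past the level filter (points) and the list median (black bars) for 16 gene lists (y axis) in trachea (left) and oviduct (right). Some genes are in more than 1 list. Dashed lines mark 2-fold; in trachea the adipocyte lists have medians of -2.40 and -1.29, lymphocyte genes -3.49 and skeletal muscle genes 5.17, and in oviduct every median lies within 2-fold.

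Markers of other cell types differed between the same trachea arrays, and their part in the fat gene differences was not tested. All 7 measured lymphocyte genes were at least 2-fold lower in the trachea labelled Gemc1-null (measured median -3.49, -3.32 with background values at the negative-control median), among them Cd79b (20.5-fold), Cd3e (18.8-fold) and Ms4a1, which was at background in that array. Of the 7 genes 5 passed only through the WT array and had to be lower. The log2 of their summed linear signal was 12.37 in WT trachea and 8.64 to 8.95 on the other arrays. All 11 skeletal muscle genes were higher (measured median 5.17, with the same floor 4.88), 6 of them passing only through the array labelled Gemc1-null. Among them were Atp2a1 (92.2-fold) and, from background in WT trachea, the myosin gene Myh1 (at least 86.4-fold), Myot (at least 45.9-fold) and Myh8 (at least 65.6-fold), and their summed signal was 15.63 in that array against 9.95 to 10.35 on the others. In WT trachea 5 of these 11 were above background. All 6 squamous epithelium genes were higher too (measured median 6.48, with the floor 6.00), 4 of them passing only through that array. Krt13 was 86.3-fold higher, Krt4 78.8-fold and, from background, Serpinb3a at least 28.3-fold, Tgm3 at least 67.2-fold and Krtdap at least 61.2-fold, with a summed signal of 14.79 against 8.10 to 8.34. Of 7 trachea epithelium genes 5 were lower and 1 higher (median -4.97), with Bpifa1 at -6.97, Scgb3a1 at -5.79 and Bpifb1 at -5.60, and a summed signal of 15.14 in WT trachea against 12.75 in the array labelled Gemc1-null and 9.11 and 9.50 in oviduct.

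Cell types that accompany fat or make some of its genes had smaller median differences. Of 7 endothelial genes 1, Pecam1 (-1.88), was at least 2-fold lower in trachea, all 7 were below 0 (median -0.60), and their summed signal was 11.41 and 10.66 in trachea and 10.61 and 10.30 in oviduct. Of 8 macrophage genes 1, Lyz2 (-2.11), was lower (median -0.79), with summed signals of 13.19 and 11.58 in trachea and 11.13 and 10.87 in oviduct. Preadipocyte and fibroblast genes had 1 of 8 lower, Dpp4 (-1.12), and 1 higher, Lum (1.02), with a median of 0.20 and summed signals of 12.08 to 12.55 over all arrays. Of 6 mesothelial genes 3 were lower in trachea, Msln (-2.15), Krt19 (-1.84) and Upk1b (-1.20). Upk3b (1.26) and Lrrn4 (1.05) were higher, and Wt1 differed by 0.42, so the list did not go 1 way. Its summed signals were 11.36 and 10.45 in trachea and 11.80 and 11.85 in oviduct. Of the thyroid and parathyroid list, Tg, the thyroglobulin gene, lay between 5.89 and 6.06 on all 4 arrays, next to the negative-control medians, and Pth, the parathyroid hormone gene, at most at 4.86. Of that list 3 of 6 passed in trachea and lay within 2-fold, and in oviduct 1 of 4, the thyrotropin receptor gene Tshr, was higher, by 1.03. The summed signals were 8.55 and 8.73 in trachea and 10.61 and 11.38 in oviduct. The list's highest genes in oviduct were Tshr (9.14 and 10.17) and Pax8 (9.57 and 10.24), and Pax8 is also in the oviduct epithelium list. Oviduct epithelium genes had 1 of 5 lower in trachea, Muc16 (-2.71), and 0 of 5 past 2-fold in oviduct, with summed signals of 9.89 and 8.88 in trachea and 13.05 and 13.18 in oviduct.

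In oviduct the lower lipid genes stood beside lower ovarian genes. Of 6 ovary somatic genes past the filter, of 7 measured in a list added after values were seen, 5 were lower by 2-fold or more in the oviduct labelled Gemc1-null also when taken against background (median -3.68). Fshr, at background there, was at least 1.16-fold lower. Cyp11a1, Hsd3b1 and Fshr passed only through the WT oviduct array and had to be lower. Cyp11a1, which starts steroid synthesis from cholesterol, was at 12.05 in WT oviduct and 5.71 in the array labelled Gemc1-null, and the list's summed signal was 13.56 against 9.28. Whether Cidea, Plin4, Elovl6 and Me1 share a source with these genes was not tested. The lymphocyte and skeletal muscle lists were within 2-fold in oviduct, with medians of 0.33 and 0.01.

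The genes nearest to Ucp1 in profile over the 4 arrays, by a distance that counts the size of differences, were not fat genes. By Euclidean distance between log2 levels centred on each gene's mean, among 20994 genes, the 6 nearest outside the list were Bpifb1 (0.44), an airway surface protein, Btla (0.47), a lymphocyte receptor, the secretoglobin Scgb3a2 (0.48), the mucin Muc5b (0.51), Glycam1 (0.53), a mucin of lymph node vessels, and the T cell receptor segment Traj38 (0.65). The nearest fat gene described here, Fabp4, was at 2.29, with 96 other genes closer. Levels were not scaled, so a gene with a smaller range lies farther even where its order is alike. Elovl3, also highest in WT trachea, was at 4.01 with 1078 other genes closer. For Adipoq the nearest were the immunoglobulin segments Igkv5-45 (0.09), Ighv1-37 (0.21), Ighv5-17 (0.23) and Ighv1-4 (0.23), Dock8 (0.22), a gene of leukocytes, and Pde3b (0.25). Igkv5-45 and Ighv1-4 were above background in WT trachea alone. Segments of 1 family may share signal and are uncertain as separate genes. Plin1 was at 0.72 from Adipoq with 150 other genes closer. These distances rest on 4 arrays and describe likeness only.

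One fit joined the tissues, with genotype and tissue as terms over all 4 arrays (limma, with 2 arrays for each genotype and a single residual degree of freedom). For genotype 0 of the 9 genes passed Benjamini-Hochberg 0.05, nor did any of the 20994 genes tested (0%), with limma adjusted p-values of 0.829 to 0.874 for the 9. At an unadjusted p under 0.05 limma gave 1 of the 9 lower, Cidea (log2 difference -1.90, SE 0.512, lower in both tissues), and 0 higher, beside 2.7% lower and 0.8% higher over all genes. Ucp1 had an estimate of -2.80 with an SE of 1.74, since it was at background in both oviducts. Adipoq (-1.05, SE 0.885), Plin1 (-0.87, SE 0.870) and Fabp4 (-0.91, SE 1.04) had SEs about as large as their estimates, their differences having opposite signs in the tissues. For tissue, again 0 genes (0%) passed, with limma adjusted p-values of 0.288 to 0.977 for the 9. The lowest was that of Cox8b, higher in trachea by 3.17 (SE 0.182, higher in both genotypes), and it was 1 of the 9 with an unadjusted p under 0.05 in limma, beside 3.83% higher and 7.43% lower over all genes. The design has little power, and values that miss the threshold do not show that levels were alike.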

How the data were processed

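RNA of freshly dissected tissue was hybridised to 1-colour Affymetrix arrays, per the labels' protocols, and processed with RMA, per the submitters' processing notes (no version given). The deposited table holds log2 of a log2 signal: raising 2 to each deposited value gave 6 significant digits in 100% of cells (relative tolerance 1e-09), against 0.0805% for powers of 10, and these powers were used as levels.

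Of 65956 transcript clusters 31258 were named to 1 gene (platform annotation, RefSeq GRCm38.p6) and 1492 listed several and stayed unnamed. Each fat gene had 1 probe set; the 441 genes with more were read by the brightest. Folds were bounded at the negative-control median (5222 probe sets). limma 3.58.1 in R 4.3.3 was tested on simulated data.

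Named genes were the fat genes and their relatives, up to 3 genes per list with the largest difference in trachea and 2 in oviduct, defining markers, and the 6 nearest profiles; others, such as Dio2, Cox7a1 and Hoxc9, were chosen after their values were seen. The genes and lists were chosen with earlier results of these data known. Alternatives varied the fold threshold, filter, probe set rule, centring, floor and limma terms.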

Additional observations from a re-analysis of the deposited data

Results flagged for a closer look

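Adipoq, Plin1 and Fabp4 differed in opposite directions between the arrays labelled Gemc1-null and WT in the 2 tissues. Adipoq had a log2 difference of -2.50 in trachea and 0.40 in oviduct. It was at background in the trachea labelled Gemc1-null, where it was at least 4.94-fold lower. Plin1 had -2.30 in trachea and 0.56 in oviduct. Fabp4 had -2.63 in trachea and 0.81 in oviduct. With 1 array per group the difference between the tissues was not tested, and the oviduct values are all under 2-fold. The oviduct levels of these genes all lay under the 95th percentile of the negative controls.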

How the results depend on the processing

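A value kept its verdict when its direction and its side of 2-fold stayed the same, and a count when it stayed within 1.5 times. Of 64 summary values under the alternatives 61 kept it. The others were the number of fat genes higher in oviduct, 2 in place of 0 at a 1.5-fold threshold, the number lower in oviduct, 0 in place of 1 at a 3-fold threshold (Cidea), and the number of genes lower in trachea than oviduct in limma, 2 in place of 0 when genotype was left out of the fit. All 81 values of single fat genes kept their side of 2-fold under averaged probe sets, centred arrays and the floor, and 80 kept their direction; Elovl3 in oviduct went from -0.09 to 0.02 with the floor. The floor moved 4 of them by over 1.5-fold, Ucp1 and Elovl3 in both comparisons with the WT trachea array. Without the level filter the counts of 2-fold fat genes were the same. Leaving out an array leaves a group with none, so it was not run. No paired analysis was possible because each group had 1 array. Signal over background limits Ucp1, Elovl3 and Lep on most arrays.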
